A study of Pyrus x bretschneideri with 2 samples.

Results

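The genes described here are 4 JAZ-type genes and 1 MYC2-like gene of pear (Pyrus x bretschneideri), 5 of the 45022 genes in the deposited expression table. They were chosen by identifier: TIFY 9-like (Pbr003675), TIFY 10A (Pbr027730), a pair of TIFY 10B-like genes (Pbr039229 and Pbr040357) and transcription factor MYC2-like (Pbr037113), each named by its best protein hit in the authors' deposited table. All 5 are among the 381 genes that table lists as different, so their difference between the libraries is what selected them and is given as a description. RNA came from the tissue surrounding wounds in pear fruit kept for 3 days at 20 °C. The control fruit had received sterile distilled water and the other fruit the yeast Meyerozyma guilliermondii, which is used in work on biological control of fruit decay. There was 1 library for each treatment, named the water library and yeast library below, so differences between them have no replicate check. The labels give no fruit cultivar, number of fruit or pooling, and unwounded fruit are not analysed here, so levels are relative to water-treated wounds. Levels are the authors' FPKM values, that is fragments per gene length and sequencing depth, whose totals were 692635 for water and 748043 for the yeast.

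JAZ proteins hold the jasmonate response of plants in check. They carry a TIFY domain and a C-terminal Jas motif through which they bind MYC2 and its relatives, basic helix-loop-helix (bHLH) activators of wound and defence genes. When wounding or attack raises the conjugate jasmonoyl-isoleucine, the receptor COI1 captures JAZ proteins for degradation and MYC2 is released. MYC2 in turn switches on JAZ genes, so JAZ transcripts commonly serve as a readout of an active jasmonate response. In Arabidopsis the genes named TIFY 9, TIFY 10A and TIFY 10B are JAZ10, JAZ1 and JAZ2.

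The names were checked against the deposited domain annotation. Each of the 4 JAZ-type genes was listed with a tify domain and a divergent CCT motif, the domain family to which the Jas motif belongs, and all 4 carried the same KEGG entry for JAZ proteins. The MYC2-like gene was listed with the N-terminal domain of bHLH-MYC factors and a helix-loop-helix domain. Names differed between databases for 2 genes. The Swiss-Prot hit of Pbr037113 was the related factor MYC4, and that of Pbr003675 was the decapping protein EDC4, although its domains and its best protein hit are those of a JAZ. The TIFY 10B-like genes had the same best hits and are treated as possible near copies, so reads may have been divided between them.

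Transcripts of all 5 genes were lower in the yeast library. The most abundant was the TIFY 10B-like gene Pbr039229, at 23.9 FPKM in the water library, and at 0.814 FPKM in the yeast library. The level of MYC2-like was 11.8 FPKM with water and 0.533 FPKM after the yeast. It was thus the second of the 5 in level with water, below the TIFY 10B-like gene and above the other repressors.

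TIFY 9-like was at 7.29 FPKM after water and 0.691 FPKM after the yeast. TIFY 10A was at 3.32 and 0.182 FPKM. The other TIFY 10B-like gene, Pbr040357, was at 1.98 FPKM after water and listed at 0 after the yeast. In the water library every member exceeded 1 FPKM, and in the yeast library every member was below 1 FPKM. As tissue was sequenced in bulk, fewer responding cells and less RNA per cell cannot be told apart.

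**Figure D1:**
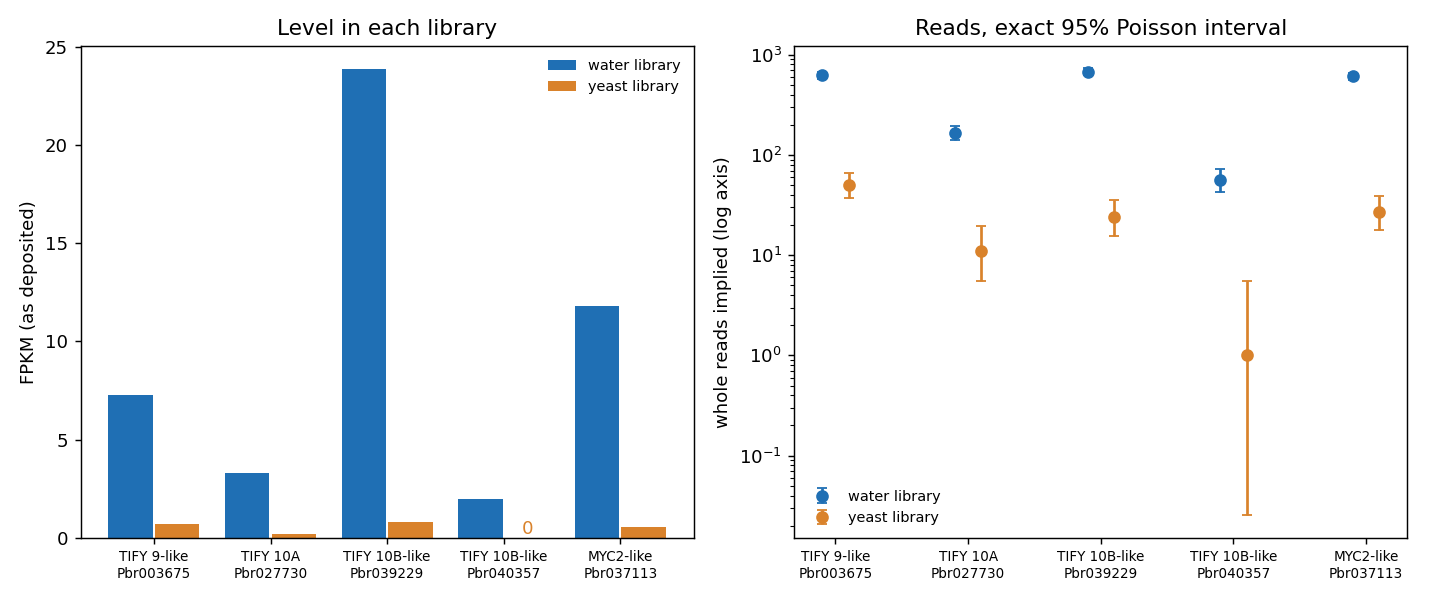
Levels of the 5 genes in each library as deposited FPKM (left, bars from 0, 1 library per group) and as the whole reads implied by the authors' comparison (right, log axis, points with exact 95% Poisson intervals that cover counting error only). Each gene is lower in the yeast library on both scales, and Pbr040357, at 0 FPKM, has 1 implied read.

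In the water library the members spanned a wide range among genes of at least 1 FPKM there. Pbr039229 exceeded 76.2% of these genes in level, MYC2-like 59.4%, TIFY 9-like 46.4%, TIFY 10A 25.8% and Pbr040357 13.9%. None was therefore among the most abundant transcripts of the wound tissue. The 4 JAZ-type genes summed to 36.4 FPKM after water and 1.69 FPKM after the yeast, a ratio of 21.6. Pbr039229 supplied 65.5% of that sum with water and 48.3% with the yeast. The share of TIFY 9-like was 20.0% with water and 41.0% with the yeast, so without this gene the ratio would be higher.

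The summed level of these 4 JAZ-type genes was 3.09 times that of MYC2-like in the water library and 3.16 times in the yeast library. Only called genes enter this comparison, as genes outside the calls have no description here. It is therefore not a ratio of all JAZ to all MYC transcripts of the tissue. Without TIFY 9-like, whose gene model is in doubt (below), the summed level was 2.47 times that of MYC2-like with water and 1.87 times with the yeast. In implied reads (defined below and not scaled to gene length), the 4 repressors had 2.51 times the number of MYC2-like with water and 3.19 times with the yeast. Without TIFY 9-like, the ratio in implied reads was 1.48 with water and 1.33 with the yeast. On both scales the proportion was thus higher with the yeast when TIFY 9-like was included and lower when it was left out. Its size differed between the scales, and with 1 library per group it has no error estimate.

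On the log2(FPKM + 1) scale, which understates differences of low genes, the ratio of yeast over water was -3.78 for Pbr039229, -3.06 for MYC2-like, -2.29 for TIFY 9-like, -1.87 for TIFY 10A and -1.57 for Pbr040357. The median of the 5 was -2.29, beside 0.0052 over the 22603 genes that reached 1 FPKM in at least 1 of the libraries. All 5 passed a 2-fold size rule, which 3.00% of those genes passed in the same direction. At 4-fold, 3 of the 5 passed (Pbr039229, MYC2-like and TIFY 9-like), against 0.858% of all genes. Because the members were selected from genes called different, nothing is read from these shares. Ranked from the lowest ratio of all 22603 genes, Pbr039229 was at place 29, MYC2-like at 62, TIFY 9-like at 139, TIFY 10A at 216 and Pbr040357 at 299.

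**Figure D2:**
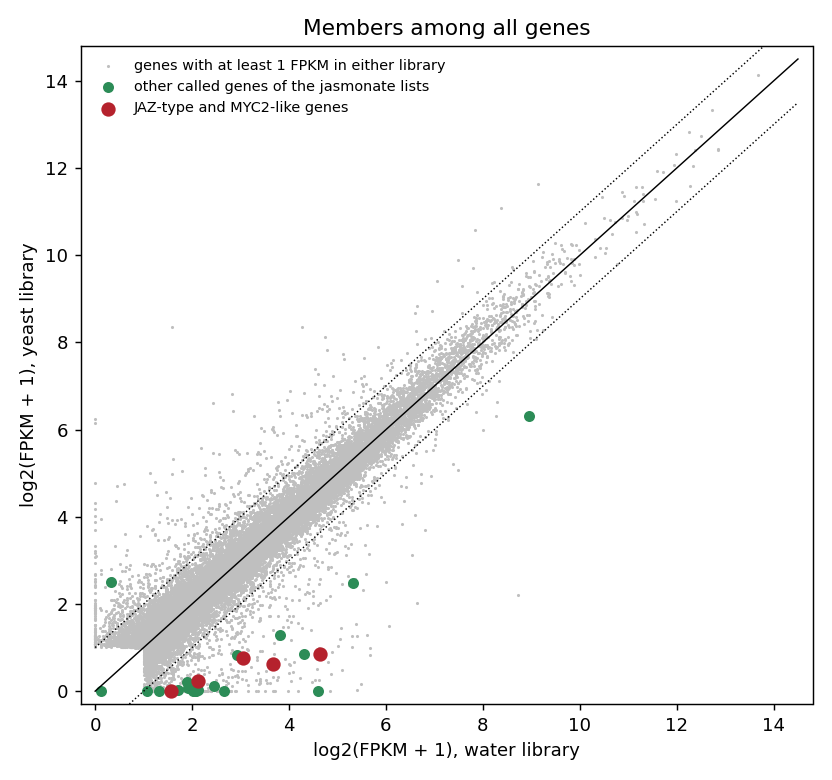
Levels in the water library (horizontal, log2(FPKM + 1)) and the yeast library (vertical, same scale) of the 22603 genes that reached 1 FPKM in at least 1 library, in grey, with the 5 members in red and 19 other called genes of the jasmonate lists in green. Of the 19, 18 are among the 22603, and the lipoxygenase gene Pbr004541 is below 1 FPKM in both libraries. The solid line marks equal levels and the dotted lines a 2-fold difference, and the 5 members lie below the lower dotted line.

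Read numbers were also reconstructed from the authors' deposited table. Its log2 fold changes could be written as a ratio of whole reads, each multiplied by a constant of its library and increased by 1. This form, fitted on genes listed at 0 FPKM in 1 library, gave whole read numbers for 331 of the 381 called genes, all 5 members included. For the 207 genes above 0 in both libraries on both scales, the median ratio of reads per FPKM between water and yeast was 1.05, and the ratio of the fitted constants was also 1.05. The fit itself ties these values together wherever the log2 values follow the FPKM ratio. Their match is therefore no check on the read numbers. The numbers below are called implied reads. Whether the unit is a single read or a read pair is not known here.

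Pbr039229 had 680 implied reads with water (exact 95% Poisson interval 630 to 733) and 24 with the yeast (15.4 to 35.7). After the scaling of the authors' comparison, it was 27.1-fold lower with the yeast, with an exact 95% interval of 18.1 to 42.6. MYC2-like had 609 implied reads (562 to 659) against 27 (17.8 to 39.3), and was 21.6-fold lower (14.7 to 33.0). For both genes the lower bound of the fold was above 10. These intervals take no account of the spread between fruit.

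TIFY 9-like had 627 implied reads with water (579 to 678) and 50 with the yeast (37.1 to 65.9), and was 12-fold lower (8.99 to 16.3). TIFY 10A, with fewer reads, had 166 (142 to 193) and 11 (5.49 to 19.7), and was 14.4-fold lower (7.86 to 29.5). Its interval is wider, and its fold cannot be ordered among the others.

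Pbr040357, listed at 0 FPKM with the yeast, had 56 implied reads with water (42.3 to 72.7) and 1 with the yeast (0.0253 to 5.57). Its fold was 53.6, with an interval of 9.23 to 2153. The gene with the highest fold is thus the one known with the least precision, and the listed 0 did not stand for an absence of implied reads. Read together, the 4 JAZ-type genes had 1529 implied reads with water and 86 with the yeast, and were 17.0-fold lower (13.7 to 21.4). TIFY 9-like, whose gene model is in doubt (below), supplied 627 and 50 of these reads. As its fold was the lowest of the 4, the pooled fold would be higher without it.

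The intervals of the folds were set beside each other for each pair of members. Of 10 pairs of members, the intervals overlapped in 9. Overlap does not show that the folds of a pair are alike, and differences within pairs were not tested. The pair without overlap was TIFY 9-like beside Pbr039229, at 12-fold and 27.1-fold. This pair also differed in another readout. In the water library, TIFY 9-like had 86.0 implied reads per FPKM and Pbr039229 28.5, a figure that grows with the gene length behind the FPKM. TIFY 10A had 49.9, MYC2-like 51.6 and Pbr040357 28.3, so the pair of TIFY 10B-like genes had nearly equal values. With the yeast, reads per FPKM were 72.4 for TIFY 9-like, 60.5 for TIFY 10A, 50.6 for MYC2-like and 29.5 for Pbr039229. They were thus lower than with water for TIFY 9-like and MYC2-like, and higher for TIFY 10A and Pbr039229. Whether the model of Pbr003675, the gene with the EDC4 hit, takes in reads from outside the JAZ sequence was not tested.

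**Figure D3:**
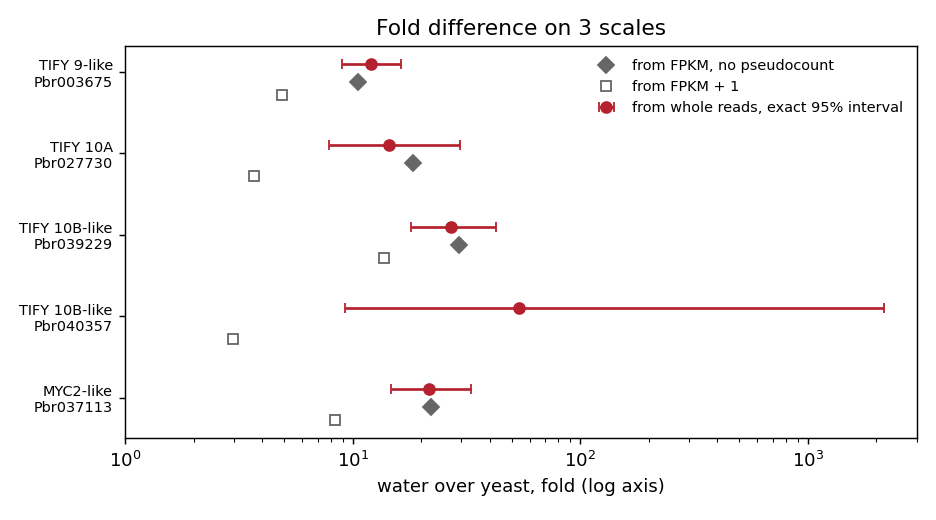
Fold difference of each gene, water over yeast, on a log axis, from implied reads (red, with exact 95% intervals for counting error), from FPKM without a pseudocount (diamonds; none for Pbr040357, at 0 FPKM) and from FPKM + 1 (open squares). Only the intervals of TIFY 9-like and Pbr039229 do not overlap, and the pseudocount brings every fold below the read-based one.

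In the authors' deposited table the log2 fold changes were -3.58 for TIFY 9-like, -3.84 for TIFY 10A, -4.43 for MYC2-like, -4.75 for Pbr039229 and -5.58 for Pbr040357. Their median of -4.43 was nearer to 0 than the median of -5.11 over the 238 genes called lower, which make up 0.529% of the 45022 genes. The adjusted p-values in the authors' deposited table ran from 1.15e-06 for Pbr039229 to 0.000415 for TIFY 10A. They compare these libraries and not the treatments.

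The genes of the jasmonate pathway and of related families were counted among the 381 called genes, of which 238 (62.5%) were lower in the yeast library. Genes outside the calls have no description in the files and are not analysed here. Apart from the 5 genes, the lists held 19 called genes, 18 lower and 1 higher. Of these, 7 belong to the synthesis, conjugation or removal of jasmonate by their names. The other 12 entered by family, 3 as bHLH factors and 9 in a list of possible outputs. No gene described as the receptor COI1, as the adaptor NINJA, which links JAZ to the co-repressor TOPLESS, or as TOPLESS itself was among the called genes. The list of perception and repression therefore consisted of the 4 JAZ-type genes, all lower.

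Upstream of JAZ, the list of jasmonate synthesis had 4 called genes, 0 higher and 4 lower. Its most abundant genes in the water library encode allene oxide synthase, which makes the precursor of the jasmonate ring. Pbr006205 had 133 implied reads with water and 15 with the yeast, and was 8.48-fold lower (4.96 to 15.6). Pbr006204 had 77 and 4, and was 18.4-fold lower (6.91 to 69.3). Both intervals overlap those of all 5 members but for Pbr006205 beside Pbr039229. Allene oxide cyclase (Pbr030638), the next enzyme, had 39 implied reads with water and 0 with the yeast.

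Of the list for conjugation and removal of jasmonate, 3 genes were called, 0 higher and 3 lower. CYP94C1 oxidises jasmonoyl-isoleucine, the signal that JAZ and COI1 bind, and in Arabidopsis its gene is itself switched on with the JAZ genes. The CYP94C1-like gene Pbr002629 had 256 implied reads with water and 2 with the yeast, a ratio of 122 (33.6 to 1017). The amidohydrolase gene ILR1-like 4 (Pbr039194), known in Arabidopsis as IAR3 and able to split jasmonate and auxin conjugates, had 178 and 3, a ratio of 56.8 (19.1 to 278). Its interval, and that of Pbr002629, overlaps that of Pbr039229 and lies above that of TIFY 9-like.

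Among bHLH factors, the family of MYC2, the list had 4 called genes, 1 higher and 3 lower. Beside MYC2-like, the lower ones were bHLH041 (Pbr015624) and bHLH92-like (Pbr040944). Pbr015624 was at 4.44 FPKM after water and 0.0784 FPKM after the yeast, from 374 and 4 implied reads, a ratio of 89.4 (34.6 to 330). Its interval lies above that of MYC2-like. Pbr040944 was at 3.06 FPKM after water and listed at 0 after the yeast, where it also had 0 implied reads beside 91 with water. With a floor of 3 reads put in place of 0 in the yeast library, its ratio was 29.0. That figure leaves out the counting error of the water reads. The exact 95% interval of its fold, which includes that error, began at 23.1.

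The higher factor was bHLH94-like (Pbr006319), with 0.254 FPKM and 9 implied reads with water and 4.67 FPKM and 165 implied reads with the yeast. A gene like the iron deficiency regulator FER-LIKE (Pbr026439), outside the list but with the same helix-loop-helix domain, was higher too, with 0 and 36 implied reads. The called bHLH genes thus stood on both sides, and MYC2-like was the most abundant of them in the water library.

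A last list held families that include genes known to respond to jasmonate or to wounding in other plants, and had 9 called genes, 0 higher and 9 lower. The most abundant was a polyphenol oxidase gene (Pbr000321), an enzyme of tissue browning, whose level was 495 FPKM after water and 77.8 FPKM after the yeast. The VQ motif gene Pbr015055 came next, with 467 and 51 implied reads, and was 8.76-fold lower (6.55 to 11.9). VQ proteins are partners of WRKY transcription factors, and all 6 with this motif were lower, 4 of them with 0 implied reads in the yeast library. They entered by their motif, and a link to jasmonate is not known here for each of them. ERF1B-like (Pbr023044), of the ERF1 type that answers to jasmonate and ethylene together in Arabidopsis, had 443 and 17 implied reads and was 24.9-fold lower (15.4 to 43.2), close to Pbr039229 and MYC2-like.

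**Figure D4:**
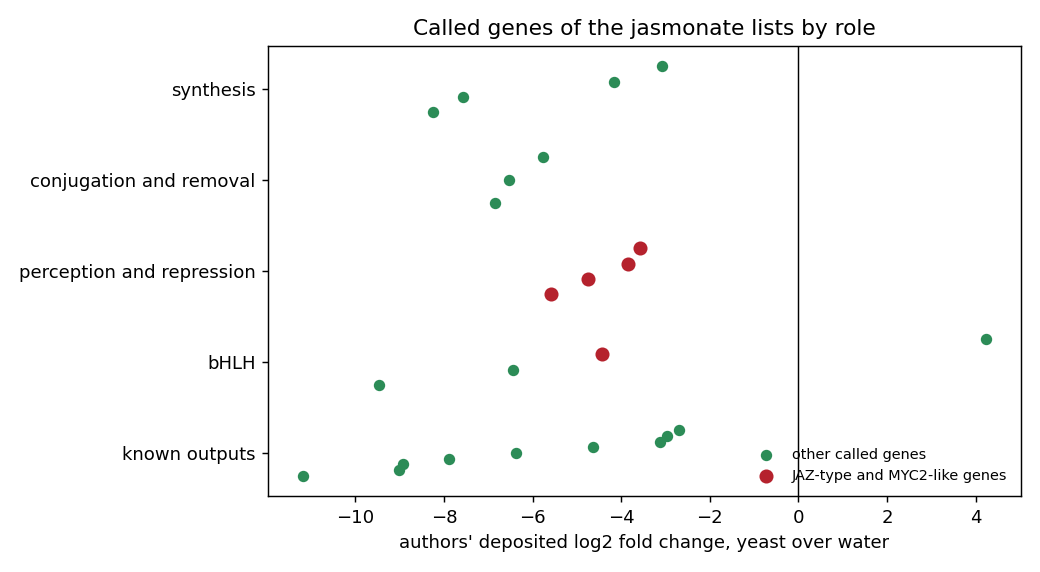
The authors' deposited log2 fold change, yeast over water, of the 24 called genes in the jasmonate lists, by role, with the 5 members in red and the others in green. All points but 1, bHLH94-like, lie below 0.

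The deposited gene ontology terms give another grouping, chosen after the values were seen. The term for the jasmonic acid mediated signalling pathway was attached to 9 called genes, 0 higher and 9 lower. Of the 5 members only TIFY 9-like carried it. The other 8 included allene oxide synthase, CYP94C1-like and ERF1B-like genes above, and also WRKY40 (Pbr022408), at 415 and 47 implied reads, and an NADPH:quinone oxidoreductase-like gene (Pbr015644), at 479 and 65. The term thus missed most of the JAZ-type genes and took in genes outside the jasmonate lists used here.

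The described genes whose levels in the 2 libraries were most like those of each member were found by distance on the log2(FPKM + 1) scale among 284 called genes. For TIFY 9-like these were glutathione S-transferase U8-like (Pbr020346, distance 0.10) and calcium-dependent protein kinase 26-like (Pbr001322, 0.13). For TIFY 10A they were a flavonol synthase 3-like locus (XLOC_023599, 0.11) and a 1-aminocyclopropane-1-carboxylate synthase-like gene (Pbr002233, 0.19), of ethylene synthesis.

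For Pbr039229 they were laccase-7-like (Pbr035929, 0.26) and ERF1B-like (Pbr023044, 0.32), and for MYC2-like an acyl-activating enzyme 12 gene (Pbr033574, 0.21) and pectinesterase 2-like (Pbr012741, 0.23). For Pbr040357 they were phosphoglycerate mutase-like (Pbr016054) and 4-hydroxycoumarin synthase 1-like (Pbr021494), at 0.014 and 0.017, both listed at 0 after the yeast. These had 177 and 122 implied reads with water and 0 with the yeast, so genes alike in FPKM differed in reads. Among the members themselves the nearest pair was TIFY 10A and Pbr040357, at 0.59, followed by TIFY 9-like and MYC2-like, at 0.64. With 2 libraries, likeness says only that levels were similar in both.

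Tissue markers could be read only among the called genes. Fruit flesh markers had 5 called genes, 1 higher and 4 lower, and their summed level was 833 FPKM after water and 2240 FPKM after the yeast. The higher sum came from the allergen gene Pyr c 1 (Pbr012008) alone, at 330.0 and 2162 FPKM. The other 4, led by the polyphenol oxidase gene named above, summed to 503 and 78.1 FPKM. The polyphenol oxidase genes among them are also counted in the list of possible outputs, and Pyr c 1 went against the other 4. These sums therefore cannot be read as an amount of flesh. Fruit skin markers had 1 called gene, which was higher (1.98 and 14.1 FPKM), as was the single gene with a best hit in a fungal genus (0.466 and 4.13 FPKM), and green tissue markers had 0. The part of tissue composition in the lower JAZ and MYC2-like levels was not tested.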

How the data were processed

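Libraries were Illumina TruSeq, per the labels, and the submitters' processing notes name Bowtie 0.12.2. The authors deposited FPKM values for 45022 genes, and log2 fold changes (yeast over water) with adjusted p-values (FDR) for 381 genes, per the file headers. Counter, genome build, annotation and comparison tool: not given in the sources used here. Sample titles gave each column its group.

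No test was made, as each group has 1 library. Ratios were log2((yeast + 1)/(water + 1)) of FPKM, for genes reaching 1 FPKM in at least 1 library. Implied reads were the smallest pair n (water) and m (yeast) for which (1 + 8.18 m)/(1 + 7.83 n), with unrounded constants, met the deposited log2 value within 3e-08. A pair was kept if neither number exceeded 5000 and the next fitting pair was at least 10 times larger. For the members the next pair began at 16830 reads with water. The constants came from genes at 0 FPKM in 1 library (65 of 84 on whole steps in water, 20 of 40 in yeast), and the largest unit that fits was taken as 1 read. It may be a read pair. Intervals are exact (Poisson for reads, Clopper-Pearson for ratios) and cover counting error only. Total read numbers were not used here.

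The members and lists were chosen with earlier results of these data known. Pathway and marker lists were text patterns on the deposited descriptions. By rule the text names the 5 members, the 2 most abundant genes of each list in the water library and the 2 most alike genes per member. Any further gene was chosen after its values were seen. No sequence or coordinate is printed, since Pbr identifiers do not occur in the reference table provided. Alternatives were the pseudocount, the filter, scaling, genes at 0, the size rule and, added after seeing the data, implied reads. Python 3.11.15, numpy 2.4.6, pandas 2.3.3 and scipy 1.17.1 were used.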

Additional observations from a re-analysis of the deposited data

How the results depend on the processing

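All 25 values of single members under the alternatives tried (pseudocounts of 0.1 and 5, 2 scalings and implied reads) stayed below 0, from -5.74 to -0.48 on the log2 scale. The count of members at least 2-fold lower was 5 of 5 in the main setting, and 3 with a pseudocount of 5, 3 with at least 5 FPKM in either library (3 genes tested) and 3 under a 4-fold rule. TIFY 10A and Pbr040357 are the genes that drop out, as both have low FPKM. They do so by construction of those settings, except for TIFY 10A under the 4-fold rule. It could have passed that rule and missed it at 3.66-fold on FPKM + 1. By implied reads 5 members were at least 4-fold lower. Of all genes, 678 were 2-fold lower, against 1100 with a pseudocount of 0.1, 243 with 5, 382 with at least 5 FPKM and 194 under a 4-fold rule. With the FPKM totals made equal, 752 genes were lower and 624 higher, in place of 678 and 750. That scaling shifts ratios by 0.11 on the log2 scale, and members moved by less. Of the 24 called genes of the jasmonate lists, 23 were lower, against 10 of 10 with at least 5 FPKM and 14 of 15 without genes listed at 0. No paired analysis was possible because each group has 1 library, and leaving out a replicate was not possible either. Depth limits Pbr040357 most, with 1 implied read in the yeast library.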

Other observations

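Pbr040357 was not alone in having implied reads where the FPKM table lists 0. By the implied reads, 20 called genes at 0 FPKM in the yeast library had at least 1 read there, 9 of them exactly 1, and 21 called genes at 0 FPKM in the water library had at least 1 read there. The largest case was a flavonol synthase 3-like gene (Pbr003487), at 0 FPKM in both libraries with 2172 implied reads with water and 61 with the yeast. Across the 207 genes above 0 on both scales, the ratio of reads per FPKM between water and yeast ran from 0.755 at the 5th percentile to 1.43 at the 95th percentile. A fold taken from FPKM and one taken from reads can therefore differ for a single gene.

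Of the 18 called genes of the jasmonate lists that were lower in the yeast library, members aside, 7 had 0 implied reads there and 6 had 1 to 5. Of the members, Pbr040357 had 1 implied read in the yeast library and the other 4 had 11 to 50.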
